A study of Mus musculus with 8 samples.

Results

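The glucocorticoid response genes followed here were 9 genes chosen by name: Nr3c1, Hsd11b1, Fkbp5, Tsc22d3, Zbtb16, Sgk1, Klf9, Mt1 and Mt2. All 9 were found among the 49671 gene identifiers, and all 9 were among the 20162 genes that passed the filter on low counts. Their levels were read in 8 bulk RNA-seq libraries of GLI2+ stromal cells, each from the lung of 1 adult mouse, 4 control (Gli2creERT2-tdt:R26RYFP) and 4 carrying SmoM2 as well (Gli2creERT2-tdt:R26RYFP/SmoM2). In both groups a tamoxifen-inducible Cre made from Gli2 switches on the YFP reporter by which live cells were sorted, and SmoM2 is a constitutively active Smoothened, the protein that passes on the Hedgehog signal, which the same Cre turns on in the SmoM2 group. The SmoM2 mice received tamoxifen into the peritoneum on 5 days, 200 mg per kg each day. The dosing of the controls, the exact ages and the hour of collection were not given in the sources used here.

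Glucocorticoids are adrenal steroids released in stress and with the time of day. They enter cells and bind the glucocorticoid receptor, the product of Nr3c1, which a chaperone complex holds ready; the bound receptor moves to the nucleus, where it raises some genes and lowers many inflammatory ones. In many tissues the bound receptor also lowers its own transcript. Lung mesenchyme is a classical target, since glucocorticoids acting on it help the fetal lung to mature.

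Library totals lay between 91.6 and 111.6 M count units, and each of the 9 genes stood at 26.0 CPM or more in every library (CPM is the count scaled to a common library total, here on TMM library sizes). Stromal markers were high throughout: the collagen gene Col3a1 lay between 4248 and 9699 CPM. Markers of other cells were present in all libraries. Summed over their lists, immune markers made 541 to 780.4 CPM in control and 556 to 1689.7 CPM in SmoM2 libraries, endothelial markers 113 to 222 and 108 to 181 CPM, epithelial markers 308 to 1543 and 223 to 958 CPM, and mesothelial markers 268 to 471 and 96.3 to 211 CPM. In bulk libraries, fewer cells of a type and less RNA per cell cannot be told apart. Of these markers, 11 of 12 immune and 7 of 7 measured adipocyte genes were higher in SmoM2, while 8 of 10 endothelial, 9 of 10 epithelial and 8 of 8 mesothelial genes were lower, with median log2 fold changes of 0.53, 0.31, −1.26, −0.41 and −1.25. Stromal markers were split 5 and 5 (median 0.03). None of these markers was called by edgeR's quasi-likelihood test, while DESeq2 called the endothelial Esam and the mesothelial Msln, Upk3b and Gpm6a. Single libraries carried some of these counts, by mean CPM: without SmoM2 4, 7 of 12 immune genes were higher, and without control 4, 8 of 10 epithelial genes were higher and 6 of 10 endothelial genes lower. These counts were added after the data had been seen. The Hedgehog target Gli1 averaged 99.3 ± 32.9 CPM in controls, against 101 ± 21.5 CPM with SmoM2 (SD, n = 4 each), a difference smaller than the spread between libraries. Libraries are named by group and by the number in their column name, which is not an animal number, and "SmoM2" below means the libraries labelled so.

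The group comparison asks whether glucocorticoid response genes differ between the libraries labelled SmoM2 and the controls. No gene of the 9 passed edgeR's quasi-likelihood test, where the share called among all genes was 0%. At an unadjusted p under 0.05 the count was 0 of 9, against 3.75% of all genes. The groups overlapped for all 9, while they did not overlap for 2.44% of all genes. Group means were higher in SmoM2 for 6 of the 9 and lower for 3, with a median log2 fold change of 0.08 beside −0.00424 over all genes tested. All 9 adjusted p-values were 0.9999 in edgeR's test. DESeq2, which called 0.275% of the genes it tested, called 0 of the 9 as well, and 0 of them at an unadjusted p under 0.05, where it counted 4.11% of genes.

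The lowest values of these genes fell mostly in 1 library. In control 2, Fkbp5 and Zbtb16 were several-fold below every other library, and the receptor gene was at its highest. Control 2 was the lowest of the 8 libraries for 6 of the 9 genes (Fkbp5, Tsc22d3, Zbtb16, Sgk1, Klf9 and Mt1) and the highest for 1, Nr3c1. Over all genes tested, control 2 was the lowest library for 12.6% and the highest for 12.1%. This way of counting was chosen after the values had been seen. Within the controls, the gap of control 2 to its neighbour, as a share of the range in CPM, stayed below Dixon's critical value of 0.829 for all 9 genes (highest 0.718, for Klf9). For Fkbp5 and Zbtb16 it was 0.227 and 0.387. CPM cannot fall below 0, and the other controls spanned 127 to 472 CPM for Fkbp5 and 212 to 505 CPM for Zbtb16. For these 2 the ratio could therefore not have reached 0.829 however low control 2 was, and it decides nothing about that library.

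**Figure D1:**
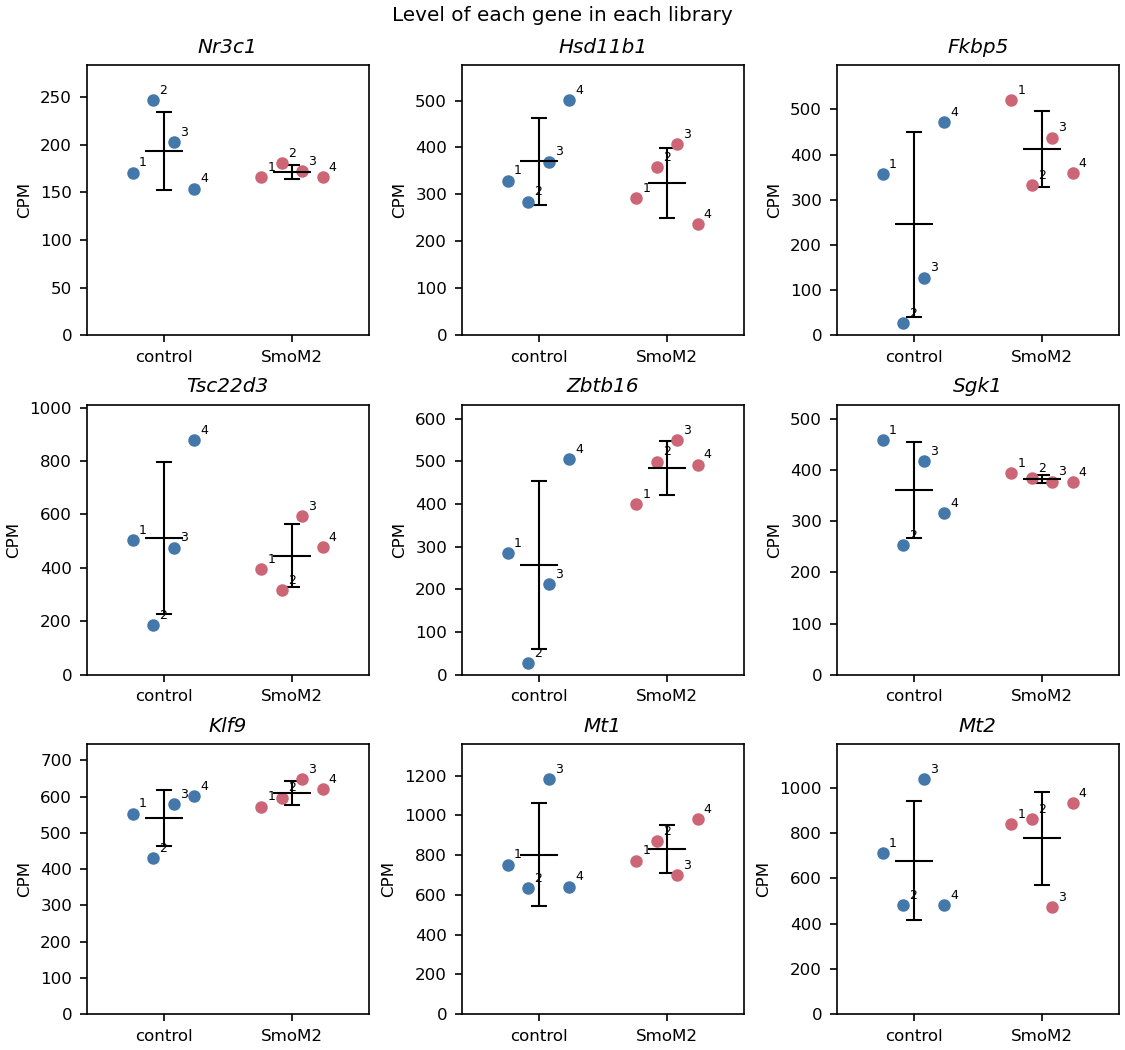
Level of each of the 9 genes (CPM, vertical axis from 0) in each library, with control in blue and SmoM2 in red; the number beside a point is the library's number, horizontal bars are group means and error bars are SD (n = 4). Control 2 lies at 26.0 CPM for Fkbp5 and 26.6 CPM for Zbtb16, far below every other library, and at the top for Nr3c1.

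Nr3c1, the receptor gene, was at 171, 246, 202 and 154 CPM in controls 1 to 4 and at 166, 181, 172 and 166 CPM in SmoM2 libraries 1 to 4. The 4 SmoM2 libraries lay close together, inside the range of the controls, and control 2 stood at the top, 1.22 times the next library. Control averaged 193 ± 40.7 CPM and SmoM2 171 ± 6.98 CPM (SD, n = 4 each). The log2 fold change was −0.18 (SE 0.14, 95% interval −0.50 to 0.15). Without control 2 the log2 fold change was −0.04 (−0.30 to 0.22). Nr3c1 (ENSMUSG00000024431) lies on chromosome 18 from 39410545 to 39519421 in mm10, on the minus strand.

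Hsd11b1 encodes the enzyme that turns inactive 11-keto steroids back into active glucocorticoid inside the cell. It was at 329, 285, 369.6 and 500.2 CPM in controls 1 to 4 and at 292, 358, 407 and 237 CPM in SmoM2 libraries 1 to 4. Control 4 and SmoM2 3 were the highest of their groups, and the groups overlapped. The log2 fold change was −0.20 (SE 0.22, interval −0.69 to 0.30). H6pd, whose product supplies that enzyme with its reduced cofactor, was highest in the same libraries: control 4 had 1335 CPM, SmoM2 3 had 1183 CPM and the others had 613 to 948 CPM. Those are also the libraries with the highest epithelial marker sums (1543 and 958 CPM, against 425 CPM or less in the other 6). They had the lowest stromal marker sums as well (41042 and 43765 CPM, against 55845 CPM or more in the other 6). The part of either in these levels was not tested. Hsd11b2, which encodes the enzyme of the opposite reaction, was at 0.890 to 1.75 CPM. Hsd11b1 (ENSMUSG00000016194) lies on chromosome 1 from 193221634 to 193264075, inside the span of Lamb3 on the other strand, with which it shares no exon base.

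Fkbp5 encodes FKBP51, an immunophilin of the receptor's chaperone complex that lowers hormone binding and is itself strongly induced by the receptor. It was at 357, 26.0, 127 and 472 CPM in controls 1 to 4, an 18.1-fold range. In SmoM2 libraries 1 to 4 it was at 519.9, 333, 438 and 359 CPM, a 1.56-fold range. Control 2 and, less so, control 3 were low, while controls 1 and 4 stood among the SmoM2 libraries. Control averaged 245 ± 205 CPM and SmoM2 412 ± 84.3 CPM (SD, n = 4 each). The log2 fold change was 0.75 (SE 0.69, interval −0.83 to 2.33). Without control 2 it was 0.37 (−0.56 to 1.30), and without control 4 it was 1.28. By limma-voom, which averages on the log scale, it was 1.41. The difference in spread between the groups was not tested. Fkbp5 (ENSMUSG00000024222) lies on chromosome 17 from 28399094 to 28517527.

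Zbtb16 encodes PLZF, a zinc finger transcription factor that glucocorticoids induce in several cell types. In controls 1 to 4 it was at 285, 26.6, 212 and 505 CPM, a 19.0-fold range. SmoM2 libraries 1 to 4 had 399, 499.8, 550.4 and 493 CPM, a 1.38-fold range. Only control 4 among the controls reached the SmoM2 range. Control averaged 257 ± 198 CPM and SmoM2 485 ± 63.1 CPM (SD, n = 4 each). On the log2 scale the fold change was 0.92 (SE 0.65, interval −0.58 to 2.41). Without control 2 the log2 fold change was 0.54 (−0.13 to 1.20), and without control 4 it was 1.48. Its limma-voom value was 1.52. The authors' deposited table gives Zbtb16 a fold change of 1.90 with an unadjusted p of 0.0360 and an adjusted p of 1. No other of the 9 had an unadjusted p under 0.05 there. Of its 30127 genes, 15 had an adjusted p under 0.05, and the share with an unadjusted p under 0.05 was not counted. For Zbtb16 the unadjusted p was 0.196 in edgeR's test and 0.207 in that of DESeq2. Zbtb16 (ENSMUSG00000066687) lies on chromosome 9 from 48654297 to 48836222.

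Fkbp5 and Zbtb16 were among the most variable genes of the whole set. The SD of log2 CPM around the group means was 1.35 for Fkbp5 and 1.32 for Zbtb16, ranks 83 and 93 of the 11395 genes averaging 5 CPM or more, whose median SD was 0.20. In control 2, Zbtb16 was 7.97-fold and Fkbp5 4.89-fold below the next lowest library, control 3 in both cases. Of the 11395 genes, 4 were at least 4-fold below every other library in control 2: these 2, the acute-phase serpin family member Serpina3h and the gene model Gm5148. The other 7 libraries had 0 to 5 such genes each. The 4-fold limit was chosen after the values had been seen.

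Tsc22d3 encodes GILZ, a leucine zipper protein that glucocorticoids induce and that takes part in their anti-inflammatory effects. It was at 503, 184, 476 and 879 CPM in controls 1 to 4 and at 396, 318, 594 and 477 CPM in SmoM2 libraries 1 to 4. Control 2 was again the lowest and control 4 the highest, and the SmoM2 libraries lay between them. Control 4 and SmoM2 3 were the highest of their groups, as for Hsd11b1, Zbtb16 and Klf9. Those are the libraries with the most epithelial and the least stromal marker RNA, and the part of either was not tested. The log2 fold change was −0.19 (SE 0.41, interval −1.13 to 0.74); it was −0.48 without control 2 and 0.20 without control 4, so its sign depended on the library left out, and by limma-voom it was −0.029. The SD around the group means was 0.71, rank 538 of 11395. Tsc22d3 (ENSMUSG00000031431) lies on the X chromosome from 140539528 to 140600659.

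Klf9, a Krüppel-like factor gene that the receptor induces directly, varied far less. It was at 553, 430.0, 580.1 and 601 CPM in controls 1 to 4 and at 572, 597, 647 and 621 CPM in SmoM2 libraries 1 to 4. Control 2 was the lowest, and the other 7 libraries lay within 553 to 647 CPM. Its log2 fold change was 0.17 (SE 0.12, interval −0.10 to 0.45), and 0.07 without control 2. Klf9 (ENSMUSG00000033863) lies on chromosome 19 from 23141226 to 23168134.

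Sgk1 encodes a serum- and glucocorticoid-induced kinase that regulates ion channels and cell survival. It was at 459, 253, 418 and 316 CPM in controls 1 to 4 and at 394, 384, 377 and 376 CPM in SmoM2 libraries 1 to 4. The 4 SmoM2 libraries spanned a 1.05-fold range in the middle of a 1.82-fold control range. The log2 fold change was 0.08 (SE 0.18, interval −0.32 to 0.49), and −0.06 without control 2. Sgk1 (ENSMUSG00000019970) lies on chromosome 10 from 21882184 to 21999903.

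One of the 6 start windows of Sgk1 holds a complete palindromic receptor motif. It is printed because the motif is rare: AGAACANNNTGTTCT, searched on both strands, occurs in 3 of 32851 start windows of the RefSeq table (0.00913%; 250 bases before to 50 after each start, GRCm38). The window is chr10:21993640-21993939 on the plus strand. Capitals mark each AGAACA or its reverse complement, and the palindrome starts 189 bases before the start site.
Sgk1 start window: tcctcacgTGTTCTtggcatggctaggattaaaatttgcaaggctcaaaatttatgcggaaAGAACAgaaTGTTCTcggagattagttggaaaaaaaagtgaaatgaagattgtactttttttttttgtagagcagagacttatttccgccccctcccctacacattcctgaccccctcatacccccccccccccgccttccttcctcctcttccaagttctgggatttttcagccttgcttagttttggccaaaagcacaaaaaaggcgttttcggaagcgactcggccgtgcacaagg
A single AGAACA on either strand, which is part of that palindrome and overlaps it here, is found in 19.0% of all windows. Among the other members' windows it occurred in 1 of the 3 of Tsc22d3, and in none of those of Hsd11b1, Fkbp5, Klf9, Mt1 or Mt2. These letters describe the window and say nothing of receptor binding in these cells.

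The metallothionein genes Mt1 and Mt2 encode small cysteine-rich proteins that bind zinc and copper, and both metals and glucocorticoids induce them. Mt1 was at 752, 633, 1181 and 641 CPM in controls 1 to 4 and at 773, 872, 700.3 and 980.3 CPM in SmoM2 libraries 1 to 4. Mt2 was at 712, 482, 1037 and 483 CPM in controls 1 to 4 and at 839.6, 861, 474 and 931 CPM in SmoM2 libraries 1 to 4. Both were highest in control 3 and next highest in SmoM2 4, and both were low in controls 2 and 4 and in SmoM2 3. This order is not that of Fkbp5 or Zbtb16, for which control 4 and SmoM2 3 were high. The log2 fold changes were 0.05 (SE 0.22, interval −0.44 to 0.55) for Mt1 and 0.19 (SE 0.30, interval −0.48 to 0.87) for Mt2; without control 3 they were 0.30 and 0.47, and the Mt1 value was −0.05 without control 2.

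Mt2 (ENSMUSG00000031762, chromosome 8 from 94172664 to 94173568) and Mt1 (ENSMUSG00000031765, from 94179082 to 94180327) lie on the plus strand with 5513 bases between them. They shared no stretch of 50 bases in their annotated transcripts. Of the 588 exon bases of Mt2, 432 are also exon of Gm45774 on the other strand, which had a mean of 149 CPM; how reads were divided between them is not given in the sources used here, so the Mt2 level is uncertain to that extent. The start windows of both genes are printed because the pair varied together and because both hold several copies of the core of the metal response element, TGCGCNC or TGCACNC, searched on both strands and marked by capitals. The windows are chr8:94178839-94179138 for Mt1 and chr8:94172368-94172667 for Mt2, both on the plus strand.
Mt1 start window: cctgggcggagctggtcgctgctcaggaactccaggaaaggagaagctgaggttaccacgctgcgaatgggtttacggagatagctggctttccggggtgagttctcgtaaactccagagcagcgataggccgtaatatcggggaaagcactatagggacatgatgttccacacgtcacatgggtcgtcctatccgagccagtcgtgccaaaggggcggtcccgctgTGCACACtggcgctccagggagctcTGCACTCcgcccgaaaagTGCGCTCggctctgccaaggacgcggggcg
Mt2 start window: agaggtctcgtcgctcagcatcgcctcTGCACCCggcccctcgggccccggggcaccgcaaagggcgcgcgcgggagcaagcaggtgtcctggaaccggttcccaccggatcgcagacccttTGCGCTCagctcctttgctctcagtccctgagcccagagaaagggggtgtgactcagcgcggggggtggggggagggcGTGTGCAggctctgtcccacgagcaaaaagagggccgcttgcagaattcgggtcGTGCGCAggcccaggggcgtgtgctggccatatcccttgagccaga
The core occurs 3 times in the Mt1 window and 4 times in the Mt2 window, while 25.7% of all windows hold at least 1, 1.97% at least 3 and 0.517% at least 4. The looser receptor palindrome GNACANNNTGTNC, held by 0.475% of windows and including every complete palindrome above, occurs once in the Mt1 window, where it reads GGACATGATGTTC and starts 94 bases before the start site.

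Per kilobase of exon, the metallothioneins were the most abundant of the 9 by far. In control libraries Mt2 stood at 1154 ± 446 and Mt1 at 644 ± 207 CPM per kb (SD, n = 4). The order of these 2 depends on the annotation. The joined exons of Mt1 cover its whole span of 1246 bases, while those of Mt2 make 588 bases. Before division by length, Mt1 averaged 802 ± 258 and Mt2 678 ± 262 CPM in controls. The Mt2 level also carries the doubt from its overlap with Gm45774. The next were Tsc22d3 at 118 ± 65.6, Klf9 at 112.4 ± 15.9, Hsd11b1 at 87.2 ± 21.9 and Sgk1 at 73.7 ± 19.2 CPM per kb, with overlapping ranges. Zbtb16 at 48.7 ± 37.4, Fkbp5 at 25.9 ± 21.6 and Nr3c1 at 25.2 ± 5.30 CPM per kb were the lowest in controls. In SmoM2 libraries Zbtb16 was at 91.9 ± 11.9 and Fkbp5 at 43.6 ± 8.91 CPM per kb, and Nr3c1 at 22.3 ± 0.909 CPM per kb was below every other gene of the set.

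**Figure D2:**
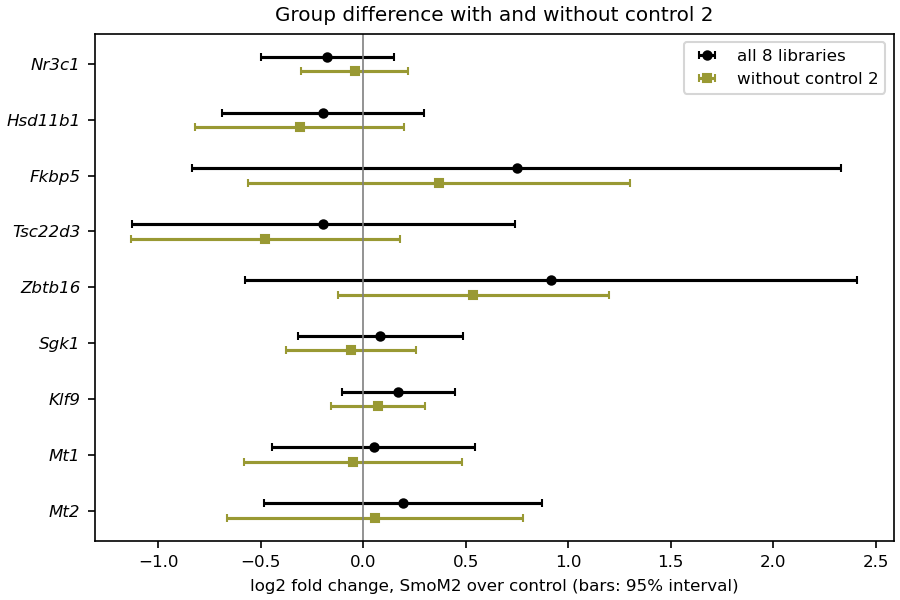
Log2 fold change of SmoM2 over control for each gene (horizontal axis) with its 95% interval from edgeR, in black for all 8 libraries and in olive for the 7 left without control 2. Every interval spans 0 in both fits; those of Fkbp5 (−0.83 to 2.33) and Zbtb16 (−0.58 to 2.41) were the widest with all libraries.

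How the genes varied together was read across all 8 libraries. Of the 36 pairs, 3 passed an exact two-sided permutation test of Pearson's r of log2 CPM after adjustment over the 36: Nr3c1 with Fkbp5 (negative), and Zbtb16 with Klf9 and Mt1 with Mt2 (both positive). Leaving out any 1 library brought the count to between 0 and 2, and it was 0 without control 2. No pair passed with Spearman's rho. No correlation was computed within 1 sex or 1 group, since each holds only 4 libraries. Values centred on sex within group are given below; each rests on only 4 independent differences between library pairs.

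Nr3c1 was high where Fkbp5 was low. Pearson's r was −0.97 (exact permutation p = 0.00198, adjusted 0.0357, n = 8 libraries) and Spearman's rho −0.83 (exact permutation p = 0.0154, adjusted 0.185). The libraries ordered from high Nr3c1 to low began with control 2 and control 3, the pair with the lowest Fkbp5. Without these 2, the farthest from the median, r was −0.60 (exact permutation p = 0.213), so the relation rests on them; without control 2 alone it was −0.89 (p = 0.0159 by the exact permutation test). Centred on sex within group, r was −0.99.

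Zbtb16 and Klf9 varied together, with r = 0.96 (exact permutation p = 0.00399, adjusted 0.0479, n = 8) and rho = 0.86 (exact permutation p = 0.0107, adjusted 0.185). Without controls 2 and 3 r was 0.89 (exact permutation p = 0.00972), and without control 2 alone 0.71 (exact permutation p = 0.0806). Centred on sex within group, r was 0.97. Zbtb16 and Fkbp5 had an equal r of 0.96, but an adjusted exact permutation p of 0.0679, and r was 0.14 without controls 2 and 3.

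Mt1 and Mt2 gave r = 0.90 (exact permutation p = 0.00131, adjusted 0.0357, n = 8) and rho = 0.93 (exact permutation p = 0.00223, adjusted 0.0804). Without control 3 and SmoM2 4, the farthest from the Mt1 median, r was 0.91 (exact permutation p = 0.0153). Without control 2 it was 0.88, and centred on sex within group 0.90. Against Fkbp5, r was 0.07 for Mt1 and 0.19 for Mt2 over 8 libraries, and −0.85 and −0.59 without control 2 (adjusted exact permutation p of 0.191 and 0.375).

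The values of Sgk1 turned on 1 library. Its r with Zbtb16 was 0.64 over 8 libraries and −0.70 over the 7 left without control 2 (exact permutation p of 0.122 and 0.0907). With Fkbp5 the values were 0.64 and −0.42, and with Klf9 0.63 and −0.58. Centred on sex within group, the r of Sgk1 was 0.997 with Fkbp5, 0.94 with Zbtb16 and 0.83 with Klf9, so the way its variation was read changed the result.

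**Figure D3:**
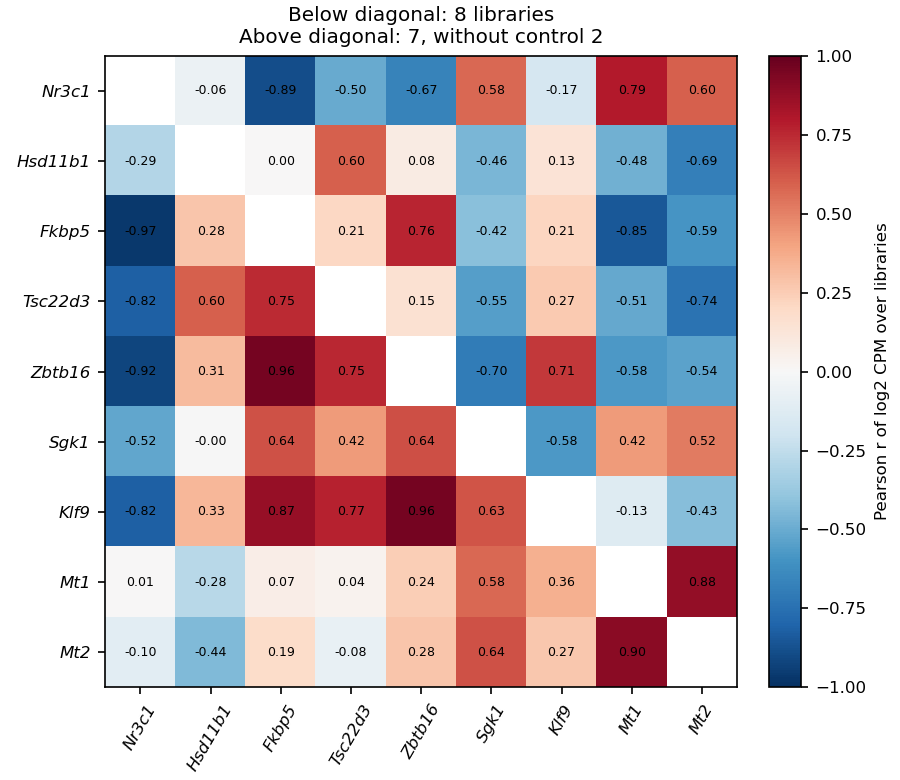
Pearson's r of log2 CPM for each pair of the 9 genes, over all 8 libraries below the diagonal and over the 7 left without control 2 above it, on a scale from −1 (blue) to 1 (red). The Mt1 and Mt2 square stays at 0.90 and 0.88, while Zbtb16 with Sgk1 goes from 0.64 to −0.70.

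**Figure D4:**
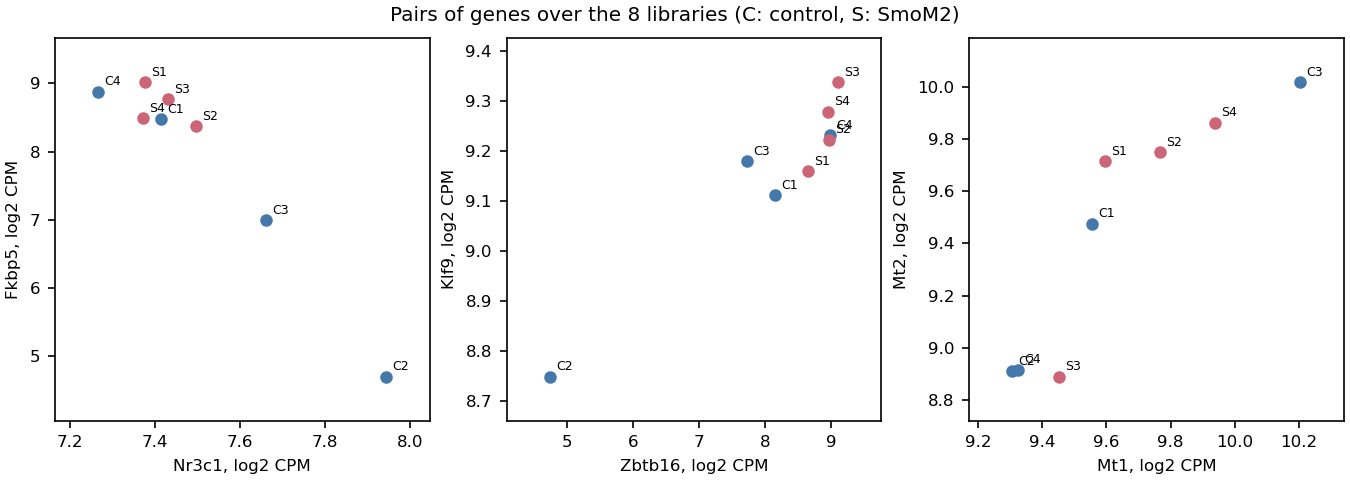
Log2 CPM of 3 gene pairs, 1 point per library (C for control in blue, S for SmoM2 in red, with the library number). Control 2 and control 3 form the low Fkbp5, high Nr3c1 end of the first panel, control 2 stands alone in the second, and the libraries spread along a line in the third.

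Among genes outside the set, those with the most like pattern were taken by Pearson's r of log2 CPM centred on the group mean over the 8 libraries, out of 10795 named genes averaging 5 CPM or more. The values describe these libraries and share their depth. Each gene was picked for the highest r among many, and how high r would reach by picking alone was not tested. For Fkbp5 they were Adamtsl2, which encodes a secreted matrix glycoprotein (r = 0.995), and Wipf3 (0.994). Adamtsl2 was at 422 CPM in control 2, 703 CPM in control 3 and 791 to 1003 CPM in the other 6 libraries. For Zbtb16 they were Ppp6r3 (0.99) and the ubiquitin ligase gene Ube3a (0.97). A high r does not mean a swing of equal size: Ppp6r3 lay within 106 to 121 CPM, while Zbtb16 spanned 26.6 to 550.4 CPM. For Nr3c1 they were the phosphatase gene Ptpn13 and Nol4l (both 0.98), and for Tsc22d3 Wdr60 (0.99) and Paxbp1 (0.98). Hsd11b1 was most like Fam171a1 (0.996) and Enpp4 (0.98), Klf9 like Zfp946 and Rps4l (both 0.97), and Sgk1 like Edc4 (0.97) and Rtn4rl2 (0.96). Mt1 was most like Ncoa4, a ferritin receptor gene (0.98), and Sarnp (0.96), and Mt2 like the interferon-inducible Ifi211 (0.99) and the intermediate filament gene Vim (0.97).

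Other glucocorticoid-induced genes were taken as a list of 24, all measured. None was called in either direction by edgeR or DESeq2, and the same held for the 6 lists that follow; 11 were higher and 13 lower in SmoM2, and the median log2 fold change was −0.04. Control 2 was the lowest library for 12 of the 24, beside 12.6% of all genes, and the highest for none. The kinase gene Pdk4, which spares glucose, was at 29.9 CPM in control 2 and 97.5 to 295 CPM elsewhere. Angptl4, a secreted inhibitor of lipoprotein lipase, was at 49.6 CPM in control 2 and 101 to 445 CPM elsewhere. Glul, which encodes glutamine synthetase, was at 290 CPM in control 2 and 561 to 1456 CPM elsewhere, and Hif3a at 4.34 CPM against 9.15 to 34.3 CPM. These 4 were picked out after their values were seen. Pdk4, Angptl4 and Glul were highest in control 4 and next in SmoM2 3. Those libraries had the most epithelial and the least stromal marker RNA, and the part of either was not tested.

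Not every gene of that list was low in control 2. The most abundant, the MAP kinase phosphatase gene Dusp1, was at 2806 CPM in control 2 within a range of 2108 to 3973 CPM. Errfi1, an inhibitor of EGF receptor signalling, was near the bottom of its range there, at 1075 CPM within 1005 to 2338 CPM. Cebpb was at 802 CPM within 438 to 894 CPM and the clock gene Per1 at 529 CPM within 371 to 569.7 CPM, so neither was low there. Anxa1, which encodes the anti-inflammatory annexin A1, was lowest in control 2 at 322 CPM and next lowest in control 4 at 361 CPM. It averaged 369.8 ± 39.3 and 431 ± 42.0 CPM, with an unadjusted p of 0.0846 and an adjusted p of 0.9999 in edgeR's test.

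**Figure D5:**
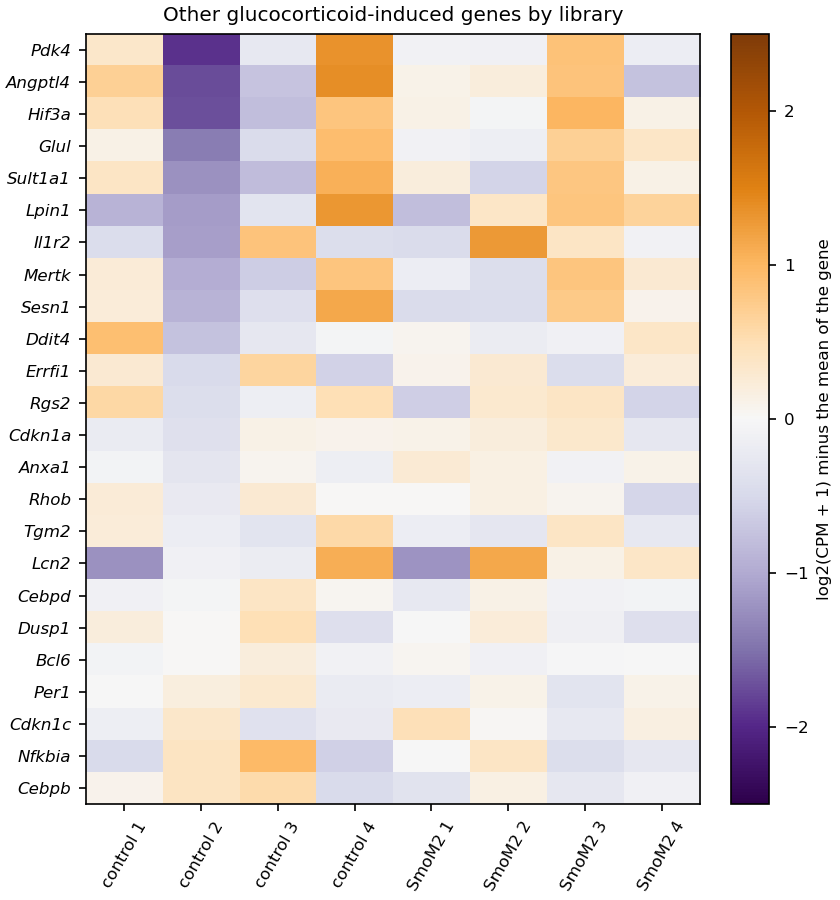
Log2(CPM + 1) of the 24 other glucocorticoid-induced genes in each library, less the mean of the gene over the 8 libraries, with genes ordered by their value in control 2. Control 2 is the lowest library for 12 of the 24, Pdk4 and Angptl4 among them.

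The receptor's chaperones and coregulators numbered 18: 13 were higher and 5 lower in SmoM2, none was called, and the median log2 fold change was 0.08. Hsp90ab1, a gene of the chaperone that holds the receptor, averaged 955 ± 53.8 and 1101 ± 235 CPM, and Hspa8 888 ± 57.7 and 980.1 ± 103 CPM. The coactivator gene Ncoa3 averaged 87.5 ± 6.22 and 95.7 ± 2.88 CPM, and the corepressor gene Nrip1 108 ± 26.8 and 132 ± 21.3 CPM. Of 11 steroid handling genes 8 were measured, with 3 above and 5 below control, a median log2 fold change of −0.05 and none called. The adrenal enzyme genes Cyp11a1, Cyp11b1 and Cyp21a1 did not pass the filter on low counts. Por, which encodes the reductase that serves cytochromes P450, averaged 327 ± 104 and 318 ± 35.2 CPM, and Star, a cholesterol carrier gene, 6.08 ± 0.795 and 5.41 ± 0.442 CPM.

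Inflammatory genes that glucocorticoids repress were measured for 15 of 16, with 7 above and 8 below control, a median log2 fold change of −0.03 and none called. Il6 was at 323, 314 and 279 CPM in control 2, control 3 and SmoM2 2 and at 132 to 158 CPM in the other 5; Il6 was picked out with its values known. Control 2 was the highest library for 3 of the 15 (Il6, Cxcl10 and Vcam1) and the lowest for 3 (Il1b, Tnf and Cxcl2). Ptgs2, the inducible cyclooxygenase gene, averaged 703 ± 345 and 638 ± 312 CPM, and the adhesion gene Vcam1 470.4 ± 108 and 417 ± 71.6 CPM. Il1b had an unadjusted p of 0.0440 and an adjusted p of 0.9999 in edgeR's test, at 29.0 ± 8.10 and 48.6 ± 17.8 CPM, and Cxcl2 averaged 31.1 ± 8.90 and 53.1 ± 25.5 CPM. The immune marker gene Lyz2, at 319 ± 78.6 and 439 ± 202 CPM, was higher on average in SmoM2 too. Its level was 723 CPM in SmoM2 4 and 247 to 410 CPM in the other SmoM2 libraries. Controls had 237 to 412 CPM. The part of immune cells in the levels of Il1b and Cxcl2 was not tested.

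Of 10 other metal handling genes 8 were measured, with 6 above and 2 below control, a median log2 fold change of 0.08 and none called. The zinc importer gene Slc39a14, at 111 ± 52.0 and 109 ± 34.8 CPM, had its highest level in control 3 (168 CPM), the library in which Mt1 and Mt2 were highest, and 141 CPM in control 2, where they were low. Slc39a8, another importer gene, averaged 21.9 ± 5.66 and 14.2 ± 2.01 CPM with no overlap between the groups (log2 fold change −0.62, SE 0.19, unadjusted p 0.00949, edgeR adjusted p 0.9999). The heme oxygenase gene Hmox1 averaged 23.7 ± 5.68 and 39.9 ± 15.8 CPM, and Gclc, a glutathione synthesis gene, 52.7 ± 8.92 and 59.7 ± 18.9 CPM.

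Other gene lists placed control 2 as follows. Of the immediate early and dissociation stress genes, 2 of 20 were higher and 18 lower in SmoM2, with none called. Their mean log2 CPM was 10.12 in control 2, within a range of 9.38 to 10.45. Fos and Egr1 were at 4802 and 4310.0 CPM in control 2, within 2054 to 6481 and 2098 to 5650.1 CPM. The lowest of these values were all in SmoM2 4. The mean log2 CPM was 9.76 to 10.06 in the other SmoM2 libraries and 9.59 to 10.45 in controls. How far the count of 18 rests on SmoM2 4 was not tested. Egr2 averaged 115 ± 56.9 and 66.8 ± 36.2 CPM and the chaperone gene Dnajb1 184 ± 76.6 and 146 ± 29.6 CPM. For the 16 circadian clock genes, 10 higher and 6 lower with none called, the mean log2 CPM was 5.73 in control 2, within 5.36 to 6.06. Bhlhe40 averaged 516 ± 196 and 535 ± 123 CPM, Per2 61.2 ± 15.5 and 79.4 ± 18.9 CPM and Per3 17.97 ± 3.196 and 25.5 ± 11.9 CPM. Control 2 was the lowest library for 2 of the 16 (Per2, at 40.7 CPM, and Per3). It was the highest for 2 (Bhlhe40, at 703 CPM, and Npas2). The stromal marker level was 10.68 in control 2, within 10.05 to 10.75. By summed CPM, immune markers were lowest there, 541 CPM, with 6 of the 12 at their lowest and Cd79a at its highest. The adipocyte and lipid markers were lowest there too, at 300.2 CPM. Lpl, which makes up most of that sum, was at 239.7 CPM. By mean log2 CPM control 2 was the lowest library for neither list. Immune markers were at 4.29 there and at 4.07 in SmoM2 1. Adipocyte and lipid markers were at 2.00 there and at 1.90 in SmoM2 2. The part of these markers in the low levels of Fkbp5 and Zbtb16 was not tested.

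Xist and Ddx3y levels gave 2 male and 2 female libraries in either group. The difference between SmoM2 and control in mean log2 CPM was 0.96 among males and 1.84 among females for Fkbp5, and 0.86 and 2.17 for Zbtb16; control 2 is a female library. In edgeR's fit, which compares means on the count scale, the male minus female difference of these effects was 0.14 for Fkbp5 and −0.12 for Zbtb16, of which the Fkbp5 value has the opposite sign to the difference in mean log2 CPM. For Nr3c1 the values were −0.10 and −0.20. Tsc22d3 stood at −0.46 among males and 0.40 among females, and Mt1 at −0.20 and 0.38. In edgeR's test of the interaction of sex and group the smallest unadjusted p among the 9 was 0.0324, for Sgk1, and every adjusted p was 0.99996.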

How the data were processed

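Polyadenylated RNA of sorted cells from 8 mice was sequenced. Per the submitters' processing notes, the tools were HISAT, StringTie, DESeq and FastQC and the build mm10; versions and roles are not given in the sources used here. The authors deposited estimated counts per Ensembl gene, whole numbers used as they stand; 5 was the most frequent value above 0 in every library, so 1 fragment may add several units and the totals may overstate depth. Their second deposited table gives, per the file headers, mean signal per group, the ratio of SmoM2 to control (foldChange), the log2 of that ratio, and raw and adjusted p-values.

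Columns show the group but not the animal. The 9 genes were joined by identifier. Count differences between any 2 libraries exceeded sampling noise (lowest chi-square per degree of freedom 20.9), so all 8 counted as replicates. The main test was edgeR 4.0.16 (R 4.3.3): TMM, filterByExpr, robust quasi-likelihood, group only, Benjamini-Hochberg over 20162 genes, threshold 0.05. Each SE was derived from the log2 fold change and its F statistic. DESeq2 1.42.0 and limma 3.58.1 served as alternatives. Log2 CPM used a prior count of 2. Correlations used all pairings of 8 libraries. Loci and exon lengths are from GENCODE M21 (mm10). RefSeq start windows (GRCm38) were matched by symbol for 7 of the 9 genes. The edgeR fit and the ranking of like genes were tried on simulated data, and the DESeq2 and limma fits were not.

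The members and lists were chosen with earlier results of these data known. Named were all 9 members, from each list the 2 most abundant genes and the 2 with the smallest p, and for each member the 2 most like genes; gene models were left out of the last, and cell type markers are given mainly as list counts and sums. Nr3c1 and Zbtb16 windows were not used here.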

Additional observations from a re-analysis of the deposited data

How the results depend on the processing

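Of 126 refitted log2 fold changes of the 9 genes (9 genes under 14 alternatives), 121 kept their direction and none passed the threshold. The 5 reversals came from leaving out 1 library: without control 2, Sgk1 was at −0.059 and Mt1 at −0.051; without control 4, Tsc22d3 was at 0.20 and Mt1 at −0.04; without SmoM2 4, Mt1 was at −0.04. With 1 library left out, Sgk1 lay between −0.059 and 0.22, Mt1 between −0.051 and 0.30, Tsc22d3 between −0.48 and 0.20, Fkbp5 between 0.37 and 1.28 and Zbtb16 between 0.54 and 1.48. By limma-voom, Fkbp5 was at 1.41, Zbtb16 at 1.52, Tsc22d3 at −0.029 and Mt1 at 0.086, and with sex as a covariate Mt1 was at 0.083. DESeq2 called 67 genes in place of 0, and leaving out 1 library gave 0 to 1; none was a member. The pairs that passed numbered 0 with Spearman's rho, 9 after centring on the group mean and 11 after centring on sex within group. For values centred in either way the permutation p is only approximate. With RLE factors 2 pairs passed, and 0 to 2 with 1 library left out. The cause of these changes in number was not tested. No paired analysis was possible because the columns carry no numbers that tie control and SmoM2 mice.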
